A study of Mus musculus with 18 samples.

Results

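The comparison asks how the transcriptional response to loss of both Ddx41 alleles differs from the response to loss of a single allele. It is an interaction: the response of cells in which both alleles are floxed (FF) minus the response of cells with 1 floxed and 1 normal allele (Het), each response being the log2 ratio of 4-hydroxytamoxifen (4OHT) to ethanol. A value above 0 means that the FF response was the higher of the pair, and a value below 0 that it was the lower. It was computed over 12 of the 18 libraries of the series, 3 in each of 4 groups, lettered A to C. The cells are immortalized mouse hematopoietic lines, made from bone marrow depleted of lineage-marked cells with a retrovirus that carries MLL-AF9, a leukemia fusion gene, and grown with IL-3, SCF and IL-6 at 10 ng/ml. They express Rosa-CreERT, a recombinase that 4OHT activates. The groups are FF with ethanol (genotype label flox/flox), FF with 1 µM 4OHT (-/-), Het with ethanol (+/flox) and Het with 1 µM 4OHT (+/-), all treated for 48 h. MLL-AF9, the recombinase, the drug and the time are thus common to both arms, and the arms differ in the number of floxed alleles and in the line. The lines also differ in expression of a Y-linked gene, as given with the libraries below. It is not labelled whether the letters were cultured separately or whether a genotype is represented by 1 line or several. The p-values therefore cover only the variation among the libraries at hand, part of which may be technical, and an effect of genotype cannot be told apart from one of the line.

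Ddx41 is a DEAD-box RNA helicase with described roles in pre-mRNA splicing, processing of small nucleolar RNAs (snoRNAs), resolution of RNA-DNA hybrids and sensing of cytosolic nucleic acid. In people, inherited mutation of a single allele predisposes to myeloid leukemia, and the remaining allele is often mutated later. The state with 1 allele and the state with none are therefore both of interest in blood progenitors. snoRNAs are small RNAs of the nucleolus that guide chemical modification of ribosomal RNA: the C/D box class guides methylation and the H/ACA box class guides pseudouridylation. Most mammalian snoRNAs are cut out of introns of host genes, some of which encode ribosomal proteins while others, such as the Snhg genes, are known mainly as carriers of snoRNAs.

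The 12 libraries held 24730213 to 49277884 counts. A pair of them stood apart. The library labelled FF ethanol C had 2274 counts of the Y-linked translation factor gene Eif2s3y (86.3 CPM, counts scaled by TMM-adjusted library size), against 0 counts in the other 5 FF libraries. Its profile had a mean correlation of 0.991 with ethanol libraries A and B of the WT line and of 0.969 with FF ethanol A and B. The reverse held for the library labelled WT 4OHT C, which is outside the 12: it had 0 Eif2s3y counts, against 2247 to 2779 in the other 5 WT libraries, and mean correlations of 0.984 with FF ethanol A and B and 0.960 with WT ethanol A and B. Whether these 2 libraries exchanged labels was not tested. The Het libraries held 2366 to 3665 Eif2s3y counts. Apart from FF ethanol C, the FF and Het arms thus also differ in this Y-linked gene. An effect of genotype cannot be told apart from one of that difference. Het 4OHT A had a mean correlation of 0.959 with its group. Rn45s, the ribosomal RNA precursor, stood at 14900 CPM there, at 18290 and 41160 CPM in FF 4OHT B and C, and at 1964 to 6464 CPM in the remaining 9. Both libraries were kept under their labels, and results are given with all 12 libraries and without this pair.

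More genes passed in the FF response than in the Het response, and the difference between the responses passed for few single genes. Of 12725 genes tested, 1263 (9.93%) passed in the FF response at an edgeR adjusted p of 0.05, 547 higher (4.3%) and 716 lower (5.63%), and 8 (0.0629%) in the Het response, all lower. In Het, 217 genes had an unadjusted p under 0.05, and DESeq2 called 25. The interaction itself passed for 57 genes (0.448%), 12 higher (0.0943%) and 45 lower (0.354%). Unadjusted p was under 0.05 for 1810 genes. This fit did not pair libraries by letter. With the letters fitted as a block within each line, 220 genes were called, 114 higher and 106 lower. The excess of falls was thus not seen under that model. All 57 were called in the FF response and none in the Het response. In all 57 the FF 4OHT libraries lay entirely above or below the FF ethanol libraries, a property of 20.5% (above) and 20.1% (below) of all tested genes. In 49 the Het libraries overlapped, and over all genes 1.86% had Het 4OHT libraries entirely above and 2.99% entirely below the ethanol libraries. In 54 the Het log2 value lay within 0.3 of 0, and the largest Het value in size was 0.726. The 57 were called from these same libraries, a step that favours separated FF groups. These counts therefore describe the 57 and are not support. The size of the 57 interactions ran from 0.751 to 2.85 with a median of 1.14.

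Without FF ethanol C and Het 4OHT A, 373 of 12875 genes were called (2.9%), 92 higher (0.715%) and 281 lower (2.18%). All 57 genes were among them with the same sign. The 316 further genes all had the same sign over 12 libraries, where their median absolute log2 value was 0.786 against 0.898, and their median standard error was 0.245 against 0.177. The number of interaction calls also depended on single libraries. Without FF 4OHT A, B or C, without Het ethanol A, B or C, or without Het 4OHT C, 1 gene, Dhx16, was called. Without FF ethanol A, B or C the counts were 21, 2 and 24, and without Het 4OHT A or B they were 300 and 102. Dhx16 was the only gene of the 57 called in each of the 12 fits with a library left out. The other 56 reached adjusted p-values of up to 0.164 in those fits, and 0 of the 57 changed sign under any alternative.

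**Figure D1:**
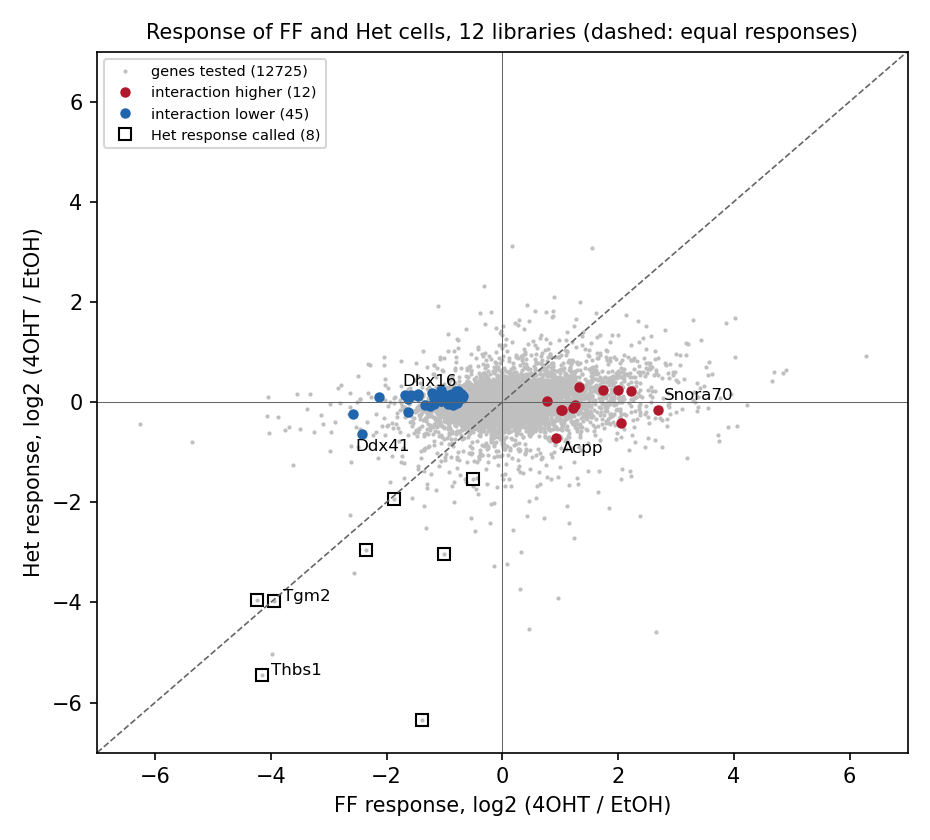
Log2 response of FF cells (horizontal) against that of Het cells (vertical) for the genes tested in 12 libraries, with the 57 genes whose interaction was called in red (12 higher) and blue (45 lower) and the 8 genes called in Het as open squares. The called interactions lie along the horizontal line of no Het response, and Tgm2 lies near the dashed line of equal responses. 7 genes beyond a log2 value of 7 are not drawn.

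Ddx41 itself (chromosome 13, 55530410 to 55536658, minus strand, GRCm38, protein coding) followed the number of floxed alleles. In FF cells it stood at 113, 82.56 and 73.28 CPM in ethanol (A, B and C) and at 14.89, 16.87 and 18.07 CPM in 4OHT. In Het cells it stood at 72.55, 70.08 and 81.05 CPM in ethanol and at 57.86, 44.15 and 42.09 CPM in 4OHT. The 4OHT libraries lay below the ethanol libraries in both lines, and all 3 FF 4OHT libraries lay below all 3 Het 4OHT libraries. Mean Ddx41 with 4OHT was 18.5% of its ethanol value in FF (16.6 ± 1.61 against 89.6 ± 20.8 CPM, SD, n = 3) and 64.4% in Het (48.0 ± 8.57 against 74.6 ± 5.76 CPM). The responses were -2.43 ± 0.18 (SE) and -0.63 ± 0.17 on the log2 scale. The Het fall did not pass over all genes (edgeR adjusted p = 1, unadjusted p = 0.00347). The interaction was -1.80 ± 0.25 (edgeR adjusted p = 0.0279), and -1.78 without FF ethanol C and Het 4OHT A (edgeR adjusted p = 0.00819). It was not called in 8 of the 12 fits with a library left out, where adjusted p reached 0.105. Gene counts hold no exon positions, and the fraction of recombined alleles was not measured here.

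Dhx16 (chromosome 17, 35879819 to 35892670, plus strand, GRCm38, protein coding) encodes a DEAH-box helicase that remodels the assembled spliceosome ahead of the first splicing reaction. It stood at 129.5, 111.6 and 113.0 CPM in FF ethanol and at 39.22, 39.0 and 36.01 CPM in FF 4OHT. In Het it stood at 102.8, 98.95 and 108.2 CPM in ethanol and at 111.0, 105.1 and 109.0 CPM in 4OHT, and these groups overlapped. The 4OHT mean was thus 32.3% of ethanol in FF and 105% in Het. The FF response was -1.63 ± 0.10, the Het response 0.07 ± 0.10, and the interaction -1.70 ± 0.14 (edgeR adjusted p = 0.000627). Without the pair of libraries that stood apart it was -1.73 (edgeR adjusted p = 0.000815). Across the alternatives tried it ran from -1.76 to -1.63, and its highest adjusted p was 0.00947. Levels before deletion did not separate the lines by the test (log2 FF to Het in ethanol 0.19 ± 0.10, edgeR adjusted p = 0.236).

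**Figure D2:**
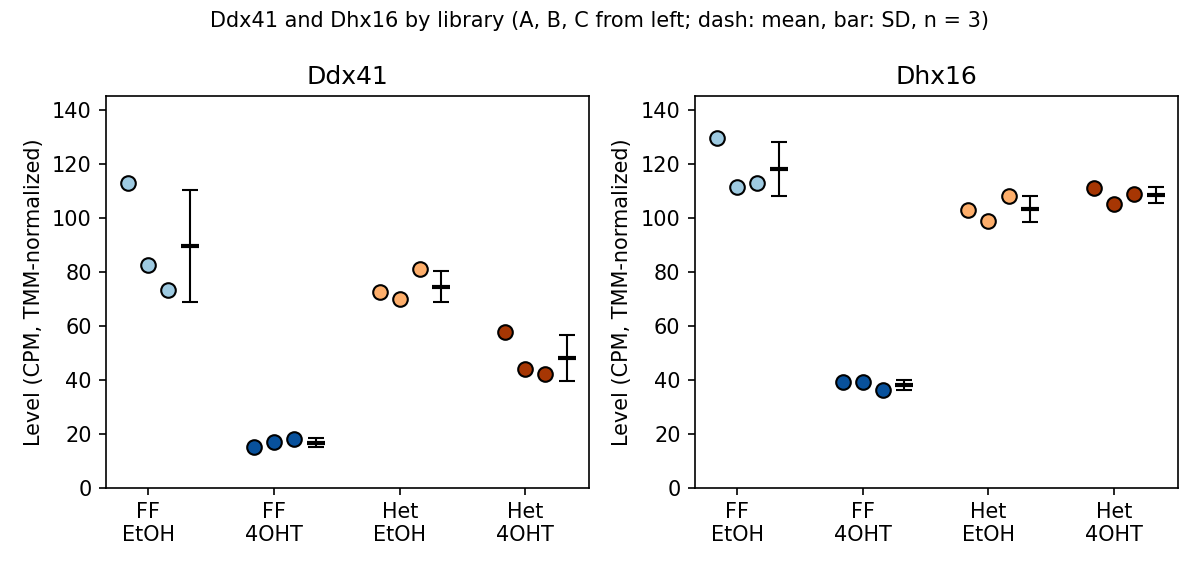
Level of Ddx41 (left) and Dhx16 (right) in CPM on the vertical axis, by group on the horizontal axis, with 1 point per library and the mean ± SD (n = 3) at its right. Ddx41 is lower with 4OHT in both lines, to 18.5% of ethanol in FF and 64.4% in Het, while Dhx16 is lower in FF (32.3%) and overlaps between treatments in Het (105%).

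Dhx16 and Ddx41 were the only members of their families called by edgeR over 12 libraries. Over all 12725 genes tested, 1810 had an unadjusted interaction p under 0.05 and DESeq2 called 568. The list counts here and below stand beside these. Of 18 DEAH-box helicases tested, 0 were called higher and 1 lower, with a median interaction of 0.04 against 0.02 over all genes. Of 39 DEAD-box helicases, 0 were called higher and 1 lower (median 0.03), and 7 had an unadjusted p under 0.05. DESeq2 called 3 of them: Ddx41, and, as higher, the RNA sensor gene Ddx58 (0.84) and the translation factor gene Eif4a2 (0.85). Without the pair of libraries Ddx55 was also called by edgeR, as higher. Ddx5, an abundant DEAD-box helicase, had an interaction of 0.02 ± 0.20 (edgeR adjusted p = 0.976). Among 55 core spliceosome genes 0 were called (median -0.07), 5 had an unadjusted p under 0.05, DESeq2 called 1, and 1, the U4/U6 component Prpf3, was called higher without the pair. The branch-point factor Sf3b1 was at 0.26 ± 0.33 and the catalytic core protein Prpf8 at 0.32 ± 0.30 (edgeR adjusted p = 0.782 and 0.684). None of 19 nonsense-mediated decay genes was called by edgeR over 12 libraries or by DESeq2 (median -0.13, 1 at an unadjusted p under 0.05), and the termination factor Gspt1 was called lower without the pair (-0.79, edgeR adjusted p = 0.0361).

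The largest called interaction among the rises was that of Snora70, an H/ACA box snoRNA within the ribosomal protein gene Rpl10. Sequences are shown for it and for 4 further snoRNAs that were called without the pair of libraries (Snora7a, Snora16a, Snora61 and Snord99, chosen after their values were seen), because both box classes and 3 host genes are represented and the short boxes are the parts that define the class. They are DNA letters of GENCODE M21 transcripts on GRCm38, 5′ to 3′. Capitals mark, in the H/ACA class, the match to the H box (ANANNA) nearest the middle and the ACA box 3 bases from the 3′ end, and, in Snord99, the C box TGATGA and the D box CTGA. Snora70 lies at chrX:74272484-74272620 (plus strand, in Rpl10), Snora7a at chr6:115807975-115808114 (minus strand, in Rpl32), and Snora16a, Snora61 and Snord99 at chr4:132309465-132309600, chr4:132310240-132310369 and chr4:132310691-132310764 (plus strand, all in Snhg12).
Snora70: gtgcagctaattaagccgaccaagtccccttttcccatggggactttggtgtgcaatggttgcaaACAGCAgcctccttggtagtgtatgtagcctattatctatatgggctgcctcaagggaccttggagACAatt
Snora7a: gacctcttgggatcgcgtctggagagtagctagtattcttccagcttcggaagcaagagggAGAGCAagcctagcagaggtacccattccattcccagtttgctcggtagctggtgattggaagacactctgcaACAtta
Snora16a: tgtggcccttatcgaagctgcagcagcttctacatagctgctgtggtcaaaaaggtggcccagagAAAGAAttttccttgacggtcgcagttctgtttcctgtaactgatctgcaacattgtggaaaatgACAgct
Snora61: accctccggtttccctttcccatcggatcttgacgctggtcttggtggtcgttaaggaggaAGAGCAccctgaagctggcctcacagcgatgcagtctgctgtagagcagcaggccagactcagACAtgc
Snord99: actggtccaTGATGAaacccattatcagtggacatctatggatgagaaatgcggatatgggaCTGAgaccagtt

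Snora70 stood at 1.57, 3.65 and 1.93 CPM in FF ethanol and at 12.9, 14.3 and 19.1 CPM in FF 4OHT, and at 2.48, 2.17 and 2.56 CPM in Het ethanol and 2.58, 1.82 and 2.06 CPM in Het 4OHT. Only the FF groups separated. The interaction was 2.85 ± 0.43 (edgeR adjusted p = 0.0279). Its host Rpl10 stood at 869 to 1419 CPM in FF ethanol and 1238 to 1405 CPM in FF 4OHT, which overlap, and had an interaction of 0.10 ± 0.31 (edgeR adjusted p = 0.918). Snora7a, in Rpl32, stood at 1.442, 1.396 and 1.019 CPM in FF ethanol and 10.7, 8.85 and 12.2 CPM in FF 4OHT, and at 1.67, 0.774 and 1.59 CPM in Het ethanol and 2.93, 0.882 and 1.59 CPM in Het 4OHT. Its interaction was 2.63 ± 0.58 (edgeR adjusted p = 0.066), and 3.02 without the pair (edgeR adjusted p = 0.0187). Rpl32 stood at 798 to 958 CPM in FF ethanol and 1003 to 1172 CPM in FF 4OHT, which do not overlap, and at 642 to 1096 and 562 to 1688 CPM in Het. Its interaction was 0.03 ± 0.45 (edgeR adjusted p = 0.987). The interaction was not called for either ribosomal protein host.

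Snhg12 holds the other 3 snoRNAs shown. Snora16a stood at 0.165, 0.680 and 0.604 CPM in FF ethanol and 3.35, 3.33 and 4.25 CPM in FF 4OHT, against 0.682 to 0.965 CPM in Het ethanol and 0.382 to 0.854 CPM in Het 4OHT (interaction 3.13 ± 0.64, edgeR adjusted p = 0.0514). Snora61 had an interaction of 1.46 ± 0.55 and Snord99 of 2.30 ± 0.74 (edgeR adjusted p = 0.254 and 0.187). Snhg12 itself stood at 11.4, 13.5 and 18.7 CPM in FF ethanol and 35.6, 38.2 and 43.1 CPM in FF 4OHT, and at 21.6, 16.9 and 17.9 CPM in Het ethanol and 32.7, 17.9 and 17.9 CPM in Het 4OHT. Het 4OHT A is the Het library that departs from the others here. Without the pair of libraries Snhg12 was at 1.71 (edgeR adjusted p = 0.0103), Snora16a at 3.0 (0.0331), Snora61 at 2.27 (0.0272) and Snord99 at 2.92 (0.0312), whereas Rpl10 and Rpl32 were at 0.47 and 0.56 (edgeR adjusted p = 0.308 and 0.392). Each of the 5 snoRNAs overlaps an exon of its host in at least 1 annotated transcript and lies in an intron of others, and Snora16a has 2 annotated entries, so how the counting divided reads between host, snoRNA and copies cannot be recovered from the table.

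**Figure D3:**
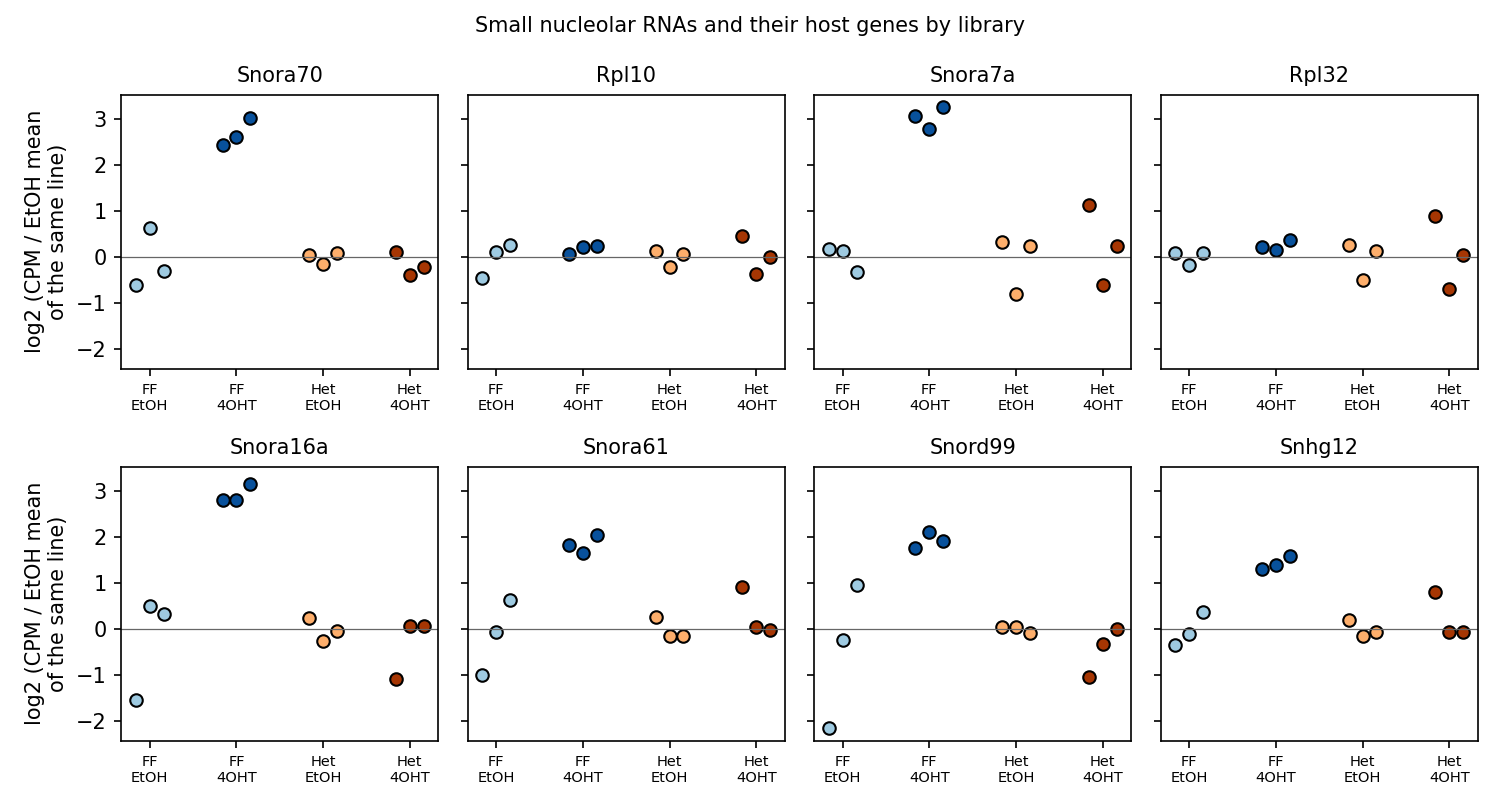
Level of 5 snoRNAs and their host genes Rpl10, Rpl32 and Snhg12 in each library, as log2 of its CPM over the ethanol mean of the same line (vertical), by group (horizontal, libraries A to C from left). The FF 4OHT points of every snoRNA and of Snhg12 lie above the FF ethanol points, as do those of Rpl32 (0.15 to 0.38), while those of Rpl10 (0.06 to 0.24) overlap its ethanol points.

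Over the classes, 27 of 36 listed H/ACA snoRNAs could be tested. All 27 had an interaction above 0, where 52.1% of all genes lay, and their median was 1.35. Over 12 libraries 1 was called higher and 0 lower (13 at an unadjusted p under 0.05, 5 by DESeq2), and without the pair 4 and 0. Of 74 C/D snoRNAs 43 were tested, 37 above 0 (median 1.27), with 0 called over 12 libraries (15 at an unadjusted p under 0.05, 6 by DESeq2) and 5 higher without the pair. The medians of the FF response were 1.41 and 1.43, and those of the Het response 0.01 and 0.07. A snoRNA that passed the filter on low counts may have done so through FF 4OHT, where it was high, so these medians and signs describe the tested members and are not support. Summed over snoRNAs, FF 4OHT A, B and C held 174.5, 173.8 and 177.1 CPM, and the other 9 libraries 56.0 to 81.6 CPM. Beside these sums, Rn45s stood at 5987, 18290 and 41160 CPM in FF 4OHT A, B and C, and the part of ribosomal RNA content in the snoRNA values was not tested.

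Host transcripts made up part of the other rises. Snhg1, a host of C/D snoRNAs on chromosome 19, stood at 82.3, 86.6 and 60.3 CPM in FF ethanol and 273, 262 and 235 CPM in FF 4OHT, against 57.03, 49.97 and 68.2 CPM in Het ethanol and 81.7, 55.0 and 69.4 CPM in Het 4OHT. It rose in FF, and its Het groups overlapped (interaction 1.51 ± 0.25, edgeR adjusted p = 0.0352). The long noncoding RNA 2700038G22Rik, whose span holds Snord93, rose from 8.48 ± 1.61 to 34.0 ± 5.50 CPM in FF (SD, n = 3), and its Het means were 6.41 ± 0.579 and 7.56 ± 0.262 CPM (interaction 1.77 ± 0.25, edgeR adjusted p = 0.0279). Rabggtb, a subunit of the enzyme that attaches lipid to Rab proteins, holds Snord45b and Snord45c and stood at 59.7 to 61.4 CPM in FF ethanol and 97.2 to 108 CPM in FF 4OHT (interaction 0.75 ± 0.13, edgeR adjusted p = 0.0382). Gas5, another host, was called without the pair only (1.24, edgeR adjusted p = 0.0121). Of 18 host transcripts tested from the list, 1 was called higher and 0 lower over 12 libraries (median 0.28, 8 at an unadjusted p under 0.05, 3 by DESeq2), and 3 and 0 without the pair. By annotation, 3 of the 12 genes called higher held a snoRNA on the same strand within their span, against 1.94% of tested genes that matched the annotation and 0 of 43 matched genes called lower. Without the pair these were 7 of 85 (8.24%) for genes called higher and 5 of 271 (1.85%) for genes called lower. A further gene called higher, Tti2, begins 348 bp from Snord13 on the opposite strand.

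The remaining rises carry other functions. Cd80, a costimulatory ligand for T cells and a p53 target, stood at 3.17, 2.61 and 2.38 CPM in FF ethanol and 13.2, 11.5 and 13.3 CPM in FF 4OHT, against 2.28 to 2.97 CPM in Het ethanol and 2.51 to 3.39 CPM in Het 4OHT. Its interaction was 1.99 ± 0.30 (edgeR adjusted p = 0.0279). Csf2rb2, a beta subunit of the IL-3 receptor, stood at 51.7 to 57.0 CPM in FF ethanol and 108 to 142 CPM in FF 4OHT, and at 75.7 to 82.5 and 56.0 to 90.2 CPM in Het (interaction 1.33 ± 0.23, edgeR adjusted p = 0.0382). Its ethanol level was lower in FF than in Het (log2 -0.57 ± 0.16, edgeR adjusted p = 0.0331), so the FF rise began below the Het level and ended above it. The ethanol comparison and the interaction use the same ethanol libraries with opposite sign. A deviation in those libraries moves both, here and for the genes below.

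Acpp, a phosphatase, was the only called gene whose responses lay on opposite sides of 0 by at least 0.3 each with 10 CPM or more. It stood at 98.9, 79.7 and 59.0 CPM in FF ethanol and 178, 156 and 120 CPM in FF 4OHT, and at 59.4, 52.8 and 58.8 CPM in Het ethanol and 33.4, 27.6 and 42.4 CPM in Het 4OHT. Neither line's groups overlapped. The FF response was 0.93 ± 0.21 and the Het response -0.73 ± 0.21, which was not called by itself (interaction 1.66 ± 0.30, edgeR adjusted p = 0.0407). Spef2, a sperm flagellar gene near the detection limit (0.453 to 0.787 CPM in FF ethanol, 2.25 to 2.87 CPM in FF 4OHT), had an interaction of 2.48 ± 0.47. The ubiquitin ligase adaptor Rab40c (1.30), the zinc finger gene Repin1 (1.18), the chaperone cofactor Tti2 (1.18) and the amino acid transporter Slc38a7 (1.04) complete the 12. Repin1 stood at 14.8 to 17.3 CPM in FF ethanol and 30.9 to 33.3 CPM in FF 4OHT, the latter within the 30.4 to 34.7 CPM of Het ethanol. Its ethanol levels differed between FF and Het (log2 -1.02 ± 0.13, edgeR adjusted p = 0.000348). Of the 57 genes, 9 differed between the lines in ethanol by this test, a comparison that called 14.4% of all genes. Without the pair of libraries 16 of the 57 differed in ethanol, and 22.4% of all genes. Because the ethanol libraries enter both comparisons, these counts are not independent of the interaction calls.

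The 45 genes with a lower FF response all fell in FF. They are described here by known role, an order chosen after their values were seen, and the counts over the lists follow further on. In Het, 17 of the 45 had a higher level with 4OHT than with ethanol within each of the 3 letters, against 12.7% of all genes, and 2 a lower level, against 16.7%. The 45 were called from these same Het libraries, and a Het rise makes such a call more likely. These shares therefore describe the 45 and are not support for a Het rise. The replication list had Rfc5 and Pold1 called lower and the G2/M and mitosis list Kif20a. Rfc5, a subunit of the clamp loader, stood at 104, 94.5 and 91.6 CPM in FF ethanol and 52.3, 52.8 and 48.9 CPM in FF 4OHT, and at 88.5 to 94.0 and 87.3 to 103 CPM in the Het groups (interaction -0.95 ± 0.14, edgeR adjusted p = 0.0279). Pold1, the catalytic subunit of DNA polymerase delta, stood at 148, 124 and 127 CPM in FF ethanol and 77.4, 81.8 and 77.5 CPM in FF 4OHT, and at 115 to 134 and 127 to 136 CPM in Het (interaction -0.82 ± 0.15, edgeR adjusted p = 0.0408). Kif20a, a kinesin of cytokinesis, stood at 163 to 187 CPM in FF ethanol and 86.8 to 104 CPM in FF 4OHT, and at 140 to 146 and 142 to 148 CPM in Het (interaction -0.84 ± 0.15, edgeR adjusted p = 0.0382). In each of these the FF groups separated and the Het groups overlapped. The centrosome and spindle genes Haus5 (-1.24), Cep78 (-1.22) and Sapcd2 (-1.40), the nuclease Ankle1 (-1.63), the cell cycle transcription factor Mybl2 (-1.08), the Mdm2-binding protein Mtbp (-1.14), and the deoxycytidylate deaminase Dctd (-1.09) were also called lower and are on no list used here. Mybl2 was higher in FF than in Het in ethanol (log2 0.91 ± 0.12, edgeR adjusted p = 0.000357), and at 95.4 to 112 CPM in FF 4OHT it came to or below the 112 to 124 CPM of Het ethanol.

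Other called falls were in genes that make or move amino acids and one-carbon units. Phgdh, the first enzyme of serine synthesis, stood at 312, 324 and 310 CPM in FF ethanol and 194, 196 and 168 CPM in FF 4OHT, and at 257, 238 and 262 CPM in Het ethanol and 343, 241 and 299 CPM in Het 4OHT (interaction -0.99 ± 0.18, edgeR adjusted p = 0.0468). Slc1a5, a glutamine transporter, stood at 313 to 350 CPM in FF ethanol and 156 to 175 CPM in FF 4OHT, and at 276 to 353 and 292 to 385 CPM in Het (interaction -1.11 ± 0.19, edgeR adjusted p = 0.0352). Bcat1, which transaminates branched-chain amino acids, stood at 15.3, 14.3 and 12.2 CPM in FF ethanol and 3.91, 3.76 and 1.83 CPM in FF 4OHT, and at 10.38 to 12.99 and 9.04 to 14.9 CPM in Het (interaction -2.23 ± 0.39, edgeR adjusted p = 0.0382). The FF level was reduced in every 4OHT library of these 3 genes, and the Het groups overlapped. Within each Het letter, Phgdh and Slc1a5 were higher with 4OHT than with ethanol, for Slc1a5 at 385 against 353, 292 against 276 and 313 against 308 CPM. The proline synthesis enzyme Aldh18a1 (-0.89), the alanine transaminase Gpt2 (-0.79), the valyl-tRNA synthetase Vars (-0.92) and the folate carrier Slc19a1 (-0.78) were called as well. Gpt2 was already lower in FF than in Het in ethanol, at 47.6 to 51.9 against 88.5 to 97.9 CPM (log2 -0.92 ± 0.10, edgeR adjusted p = 0.000106).

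Fads2, a fatty acid desaturase, stood at 218, 144 and 129 CPM in FF ethanol and 50.9, 57.9 and 49.3 CPM in FF 4OHT, and at 160, 131 and 163 CPM in Het ethanol and 124, 114 and 154 CPM in Het 4OHT (interaction -1.42 ± 0.27, edgeR adjusted p = 0.0496). On no list used here, the isocitrate dehydrogenases Idh2 (-0.82) and Idh3b (-0.87), the dicarboxylate carrier Slc25a10 (-1.08), the coenzyme A synthase Coasy (-0.76), the mitochondrial protease Htra2 (-1.02), the mitochondrial shape factor Msto1 (-1.08) and the inositol synthase Isyna1 (-0.87) were called. Sdf2l1, an endoplasmic reticulum chaperone partner, stood at 228 to 260 CPM in FF ethanol and 124 to 132 CPM in FF 4OHT, and at 147 to 175 and 146 to 205 CPM in Het (interaction -1.08 ± 0.19, edgeR adjusted p = 0.0382).

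The other falls were of mixed function. Plekhh2, a cytoskeletal adaptor, had the most negative value of the 57: it stood at 16.81, 14.17 and 18.04 CPM in FF ethanol, 2.704, 2.995 and 2.466 CPM in FF 4OHT, 18.6, 21.4 and 24.1 CPM in Het ethanol and 8.46, 23.2 and 22.5 CPM in Het 4OHT (interaction -2.34 ± 0.44, edgeR adjusted p = 0.0475). Het 4OHT A was its 1 low Het library, and without the pair the interaction was -2.62 (edgeR adjusted p = 0.000815). Ccdc107 (-1.82), Sh2d5 (-1.72), Ccdc101 (-1.58, a subunit of the SAGA coactivator), Ssbp4 (-1.29), Pced1a (-1.26), Map3k6 (-1.22), the Mediator subunit Med25 (-1.17), Ifrd1 (-1.17), Ifrd2 (-1.02), Ydjc (-1.06), Ncln (-1.03), BC005764 (-0.99), the transcription factor Tcf19 (-0.95), the polarity gene Scrib (-0.94) and the elongation regulator Nelfcd (-0.78) were also called lower. Protein-coding genes called lower had a median annotated span of 12.1 kb, against 23.5 kb over all tested protein-coding genes. Their median exon number, counted in the transcript with the most exons, was 12 against 9. These values come with no test, and without the pair the genes called lower had 24.4 kb and 15 exons.

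**Figure D4:**
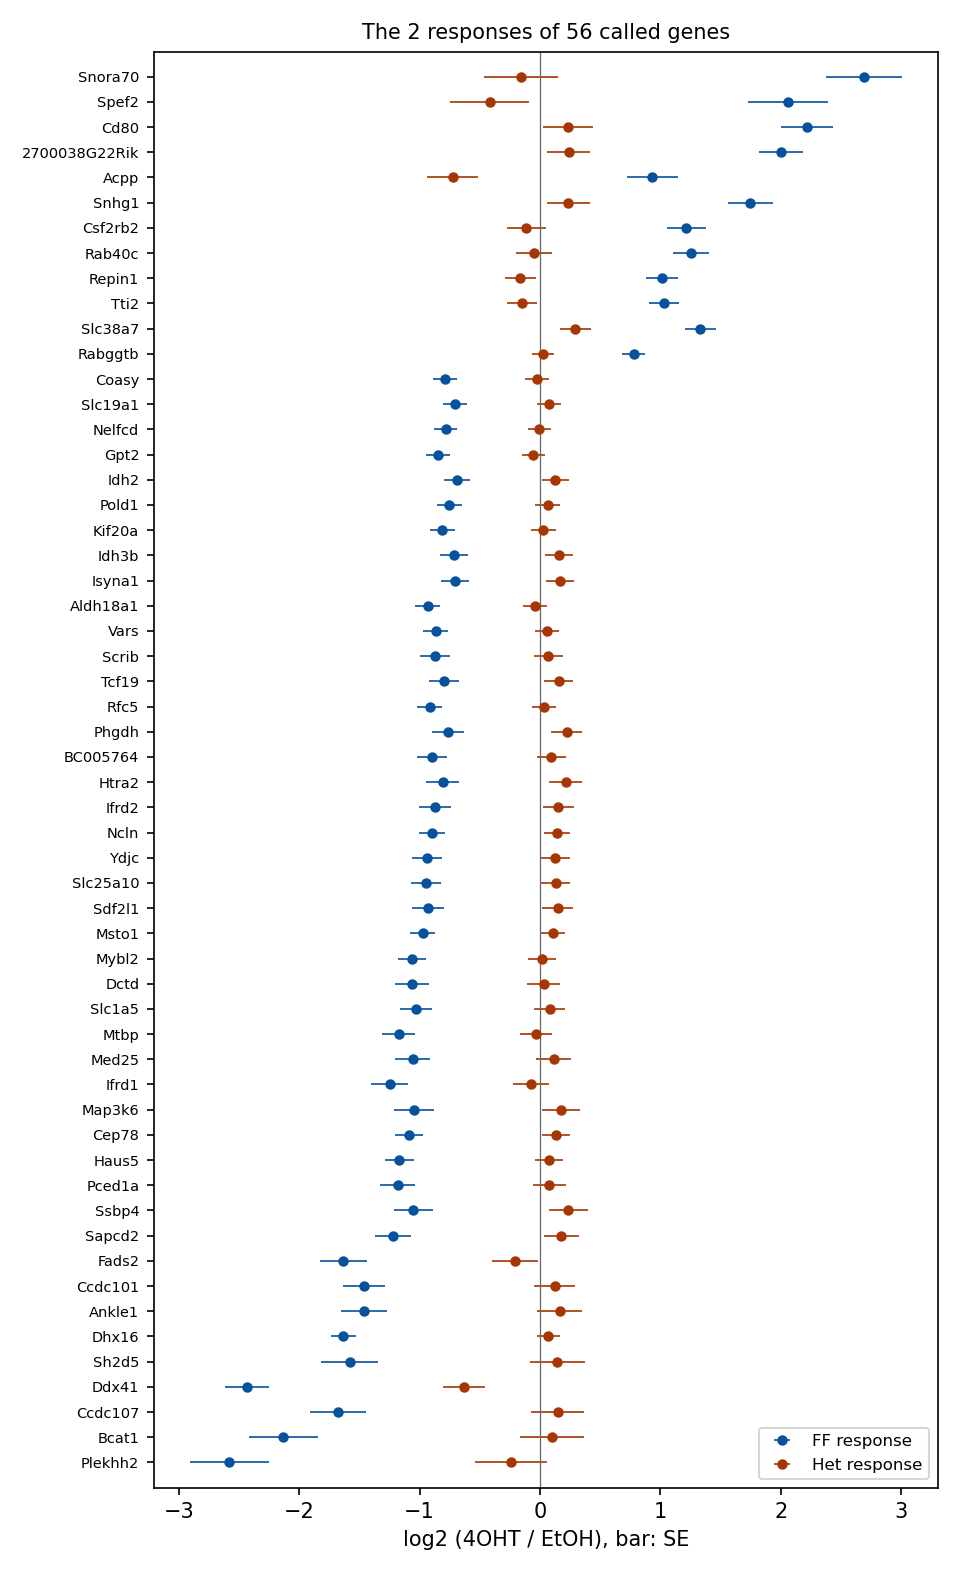
Log2 response (horizontal, ± SE) of FF cells (blue) and Het cells (brown) for 56 of the 57 genes with a called interaction (vertical, ordered by interaction from Plekhh2 at -2.34 to Snora70 at 2.85). Het values lie near 0 except for those of Acpp (-0.73) and Ddx41 (-0.63), and to a lesser extent Spef2 (-0.42).

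Gene groups were read by the number of called members and by the median interaction, beside 0.02 over all genes, of which 47.9% lay below 0. Counts at an unadjusted p under 0.05 and by DESeq2 stand beside 1810 and 568 of all 12725 genes. All 48 G2/M and mitosis genes had a value below 0 (median -0.53), and 0 were called higher and 1 lower by edgeR over 12 libraries, where 31 had an unadjusted p under 0.05 and DESeq2 called 18, and 0 and 8 without the pair, among them the cyclin Ccna2 (-0.89, edgeR adjusted p = 0.0258) and the proliferation marker Mki67 (-0.91, 0.0272). Of 51 replication and S phase genes 47 were below 0 (median -0.40), with 0 called higher and 2 lower (20 at an unadjusted p under 0.05, 9 by DESeq2), and 0 and 6 without the pair. Of 41 Fanconi, recombination and checkpoint genes 39 were below 0 (median -0.38), with 0 called over 12 libraries (15 at an unadjusted p under 0.05, 9 by DESeq2) and 5 lower without the pair. Brca2 is an example: at 54.2, 63.8 and 58.3 CPM in FF ethanol and 31.7, 28.6 and 21.3 CPM in FF 4OHT it stood apart in FF, but Het 4OHT A, at 33.7 CPM against 55.9 to 78.6 CPM in the other 5 Het libraries, resembled FF 4OHT. Its interaction was -0.99 ± 0.37 (edgeR adjusted p = 0.257) and -1.30 without the pair (0.0227). Fancd2, of the interstrand crosslink pathway, followed the same pattern, with 32.5 CPM in Het 4OHT A against 50.7 to 64.9 CPM in the other Het libraries (-0.60 ± 0.30, and -0.92 without the pair, edgeR adjusted p = 0.399 and 0.0352).

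Metabolic lists leaned the same way. Of 28 serine, glycine and one-carbon genes 24 were below 0 (median -0.46), with 0 called higher and 2 lower (11 at an unadjusted p under 0.05, 9 by DESeq2), and 0 and 8 without the pair. Shmt2, the mitochondrial serine hydroxymethyltransferase, stood at 407 to 475 CPM in FF ethanol and 217 to 248 CPM in FF 4OHT (-1.02 ± 0.21, edgeR adjusted p = 0.0508, and -0.95, 0.0331, without the pair). Cth, which makes cysteine, stood at 10.4 and 10.1 CPM in FF ethanol A and B but at 56.1 CPM in the library labelled FF ethanol C. The Cth interaction was -2.49 ± 0.75 with that library, -1.14 without the pair (edgeR adjusted p = 0.159 and 0.0262), and -1.21 without that library alone (0.0581). Of 29 ATF4 and amino acid stress genes 26 were below 0 (median -0.51), with 0 called higher and 2 lower (10 and 6 by the same measures). Of 23 aminoacyl-tRNA synthetases 21 were below 0 (median -0.37), with 0 and 1 called (10 and 3). Fatty acid synthesis (27 genes, median -0.31) had 0 and 1 called (8 and 3), and 0 and 5 without the pair, with Scd1, a stearoyl desaturase, at -1.60 ± 0.31 and -1.86 (edgeR adjusted p = 0.0508 and 0.0173). Scd1 was also lower in Het 4OHT, at 121, 130 and 188 CPM against 212, 197 and 254 CPM in ethanol. Cholesterol synthesis (28 genes, median -0.36) had 0 called over 12 libraries (9 at an unadjusted p under 0.05, 2 by DESeq2), as had glycolysis (23 genes, median -0.24, 2 and 0). Of 28 endoplasmic reticulum chaperone and unfolded protein response genes 0 were called higher and 1, Sdf2l1, lower (median -0.16).

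**Figure D5:**
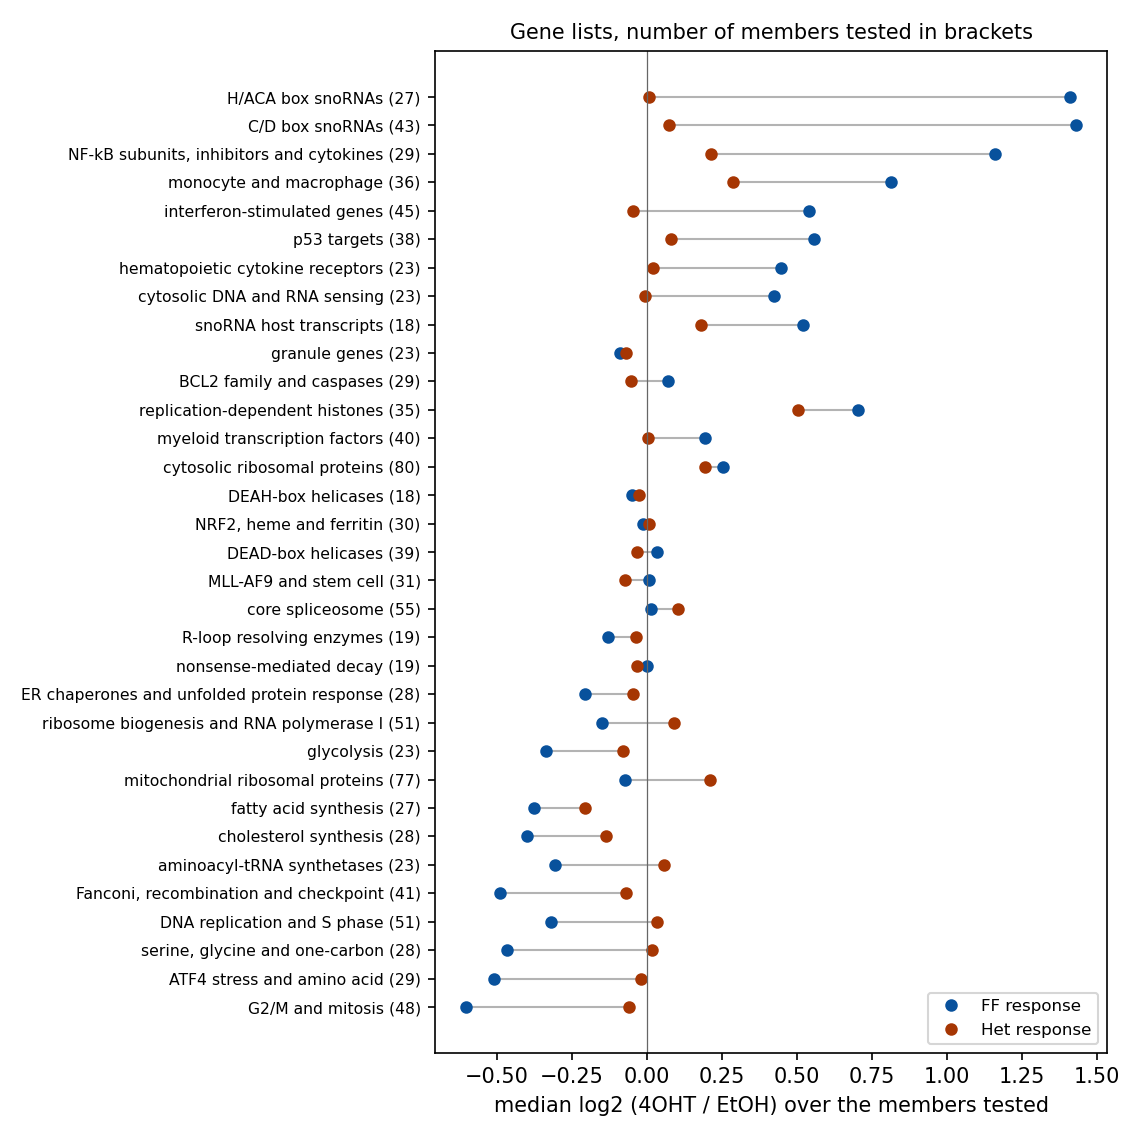
Median log2 response over the tested members of each gene list (number in brackets), for FF cells (blue) and Het cells (brown), ordered by the median interaction. The H/ACA and C/D snoRNAs are at 1.41 and 1.43 in FF and near 0 in Het, and G2/M and mitosis is at -0.60 in FF and -0.06 in Het.

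Among lists with higher values were those of p53, innate immunity and monocytes, and few of their members were called. Of 38 p53 targets 29 were above 0 (median 0.42), with 1 called higher and 0 lower (15 at an unadjusted p under 0.05, 8 by DESeq2), and 4 and 0 without the pair. Phlda3, an inhibitor of AKT, stood at 6.59, 4.79 and 3.21 CPM in FF ethanol and 31.3, 26.5 and 33.8 CPM in FF 4OHT, against 1.65 to 3.31 CPM in Het ethanol and 3.50 to 3.98 CPM in Het 4OHT. The Het 4OHT libraries lay above the Het ethanol libraries as well (Het response 0.57), and the interaction was 2.08 ± 0.40 (edgeR adjusted p = 0.0508, and 0.0309 without the pair). Mdm2, the ubiquitin ligase of p53, was at 0.82 ± 0.17 (edgeR adjusted p = 0.0508, and 0.0471 without the pair), and the stress-induced gene Trp53inp1 at 1.90 ± 0.55 (0.149, and 0.0291). Of 45 interferon-stimulated genes 35 were above 0 (median 0.63), with 0 called (11 at an unadjusted p under 0.05, 4 by DESeq2) and 2 higher without the pair, of which Irf9, a subunit of the interferon-responsive transcription factor, was at 1.06 ± 0.26 (edgeR adjusted p = 0.0876, and 1.23, 0.0359, without the pair). Of 29 NF-kB and cytokine genes 24 were above 0 (median 0.87) and 0 were called in either edgeR fit (6 at an unadjusted p under 0.05 and 2 by DESeq2 over 12 libraries). The chemokine gene Ccl9 shows the spread in this list: it stood at 227, 309 and 71.0 CPM in FF ethanol, the low value being library C, and its interaction was 0.48 ± 0.54 (edgeR adjusted p = 0.741). Of 23 genes for sensing of cytosolic nucleic acid 20 were above 0 (median 0.30), with 0 called in either fit (7 and 2 by the same measures).

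Monocyte and macrophage genes (36 tested, median 0.72) had 0 called over 12 libraries (12 at an unadjusted p under 0.05, 5 by DESeq2) and 2 higher without the pair, the lectin Clec4d (1.18, edgeR adjusted p = 0.0225) and the adaptor Tyrobp (0.86, 0.0257). Lyz2, lysozyme, stood at 227, 278 and 185 CPM in FF ethanol and at 996, 1224 and 1381 CPM in FF 4OHT, and at 304, 455 and 213 CPM in Het ethanol and 497, 710 and 271 CPM in Het 4OHT. In Het each lettered 4OHT library lay above its ethanol partner while the groups overlapped, and the interaction was 1.78 ± 0.47 (edgeR adjusted p = 0.117, and 0.148 without the pair). Summed over 11 monocyte and macrophage markers, FF ethanol held 1033 to 1158 CPM and FF 4OHT 2381 to 3064 CPM, against 983 to 1961 and 996 to 2281 CPM in Het. Lyz2 is 1 of these markers, and the FF sums rest in large part on it. The 9 neutrophil markers in the table summed to 607 to 1415 CPM in FF ethanol and 1008 to 1735 CPM in FF 4OHT, against 140 to 297 and 51.7 to 147 CPM in Het, where S100a8 had a log2 response of -1.69 and an interaction of 1.59 ± 0.81 (edgeR adjusted p = 0.403). The 12 myeloid progenitor markers, among them Elane and Prtn3, included none at 0 in all 12 libraries. They summed to 8592 to 12340 CPM in FF ethanol and 6805 to 7707 CPM in FF 4OHT, which do not overlap, against 7295 to 9614 and 6111 to 11920 CPM in Het. Elane, the most abundant of them, went from a mean of 3893 to 2214 CPM in FF, while the FF groups of Prtn3 overlapped. The 8 lymphoid markers summed to 9.88 to 13.9 and 4.59 to 8.03 CPM in FF, and 4.33 to 11.1 and 4.46 to 9.0 CPM in Het. The 6 megakaryocyte and platelet markers summed to 2.40 to 4.64 and 6.17 to 10.7 CPM in FF, and 4.11 to 8.67 and 3.85 to 11.8 CPM in Het. Mast cell and basophil, erythroid and stromal sums overlapped between treatments in both lines. The erythroid genes Hba-a1, Hbb-bs and Car1, the lymphoid genes Cd3e, Cd3g and Ms4a1, and Prss34 of basophils were at 0 in all 12 libraries. In bulk RNA, fewer cells of a type and less RNA per cell cannot be told apart, and the part of these marker shifts in the interactions was not tested.

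Few members were called in the other lists. Ribosome biogenesis and RNA polymerase I (51 genes, median -0.23) had 0 called over 12 libraries (14 at an unadjusted p under 0.05, 4 by DESeq2), and 1 higher and 3 lower without the pair, with the polymerase subunit Polr1a at -0.81 ± 0.17 (edgeR adjusted p = 0.0577) and -0.98 (0.0121). Of 80 cytosolic and 77 mitochondrial ribosomal protein genes 0 were called in either edgeR fit or by DESeq2, with 0 and 4 at an unadjusted p under 0.05. The cytosolic median was 0.08 over 12 libraries and 0.47 without the pair, and the mitochondrial median -0.27 and -0.02. Nor was any of 19 R-loop resolving enzymes called in either edgeR fit or by DESeq2 (median -0.10, 0 at an unadjusted p under 0.05). The MLL-AF9 and stem cell list (31 genes, median 0.02) had Bcat1 called lower, and without the pair also Hoxa5 (0.87, edgeR adjusted p = 0.042) and Hoxa6 (1.28, 0.0257) called higher, both homeobox genes of the MLL program. No member passed in either fit among 40 myeloid transcription factors (median 0.10), 23 granule genes (0.20) or 30 NRF2, heme and ferritin genes (0.04). In these lists 1, 3 and 7 had an unadjusted p under 0.05, and DESeq2 called 0, 0 and 2. Of 23 hematopoietic cytokine receptor genes 19 were above 0 (median 0.365), with 1, Csf2rb2, called higher and 0 lower. In this list 6 had an unadjusted p under 0.05 and DESeq2 called 3. Of 35 replication-dependent histone genes 0 were called by edgeR or DESeq2 (1 at an unadjusted p under 0.05), with medians of 0.70 in FF and 0.50 in Het.

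A small set of genes was called in Het, and part of it was also called in FF. The 8 genes called in Het were Thbs1, Mreg, Tgm2, Gbp11, Myl10, Nlrp3, Bpifc and Gm7694, and for all of them the interaction was not called. Gbp11, Nlrp3 and Gm7694 were not called in FF (edgeR adjusted p = 0.270, 0.117 and 0.175). Gbp11 had -1.39 ± 0.75 in FF and -6.35 ± 0.80 in Het, with an interaction of 4.96 ± 1.27 (edgeR adjusted p = 0.105). Thbs1, the matrix protein thrombospondin, stood at 2221, 1644 and 1319 CPM in FF ethanol and 99.6, 79.0 and 114 CPM in FF 4OHT, and at 2051, 2133 and 1305 CPM in Het ethanol and 26.8, 75.3 and 22.7 CPM in Het 4OHT. Tgm2, a transglutaminase, had responses of -3.94 ± 0.46 in FF and -3.98 ± 0.46 in Het, and an interaction of 0.04 ± 0.59 (edgeR adjusted p = 0.985). Mreg, Myl10 and Bpifc also fell in both. Nlrp3, an inflammasome sensor, had -0.999 ± 0.379 in FF and -3.04 ± 0.41 in Het, with an interaction of 2.04 ± 0.54 (edgeR adjusted p = 0.116). A missed threshold does not show that responses were equal. Without the pair of libraries 5 genes (0.0388%) were called in Het, all lower.

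The genes called in FF are described here by their Het response. They were chosen by their FF values, a step that favours large FF medians but not large Het medians. The medians side by side therefore describe these genes and are not support for a smaller Het response. For the 547 higher genes the median was 1.06 in FF and 0.09 in Het, and 67.5% had a Het value above 0, against 46.8% of all genes. For the 716 lower genes the medians were -0.71 and -0.03, and 57.1% had a Het value below 0, against 53% of all genes. Without the pair of libraries 2610 genes (20.3%) were called in FF, 1100 higher (8.54%) and 1510 lower (11.7%), and these shares were 61.2% and 49.9%, against 49.6% and 50% of all genes. Over all 12725 genes the FF and Het responses, which share no libraries, had a Pearson r of 0.23 and a Spearman rho of 0.15 as a description across genes. The interquartile range of the response was 0.568 in FF and 0.274 in Het. Of the 1263 genes called in FF, 57 were called in the interaction, whose median standard error over all genes was 0.296.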

How the data were processed

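The deposited table holds raw counts of reads per gene symbol for 18 libraries, not normalized by the authors. The submitters' processing notes list mm10 and the tools HISAT2 2.0.5, featureCounts 1.5.2, Subread, FastQC 0.11.7 and CASAVA 1.4, with no settings. Not given in the sources used here are the strand setting, annotation, multi-mapping rule and library kit, so overlapping and antisense genes and near-identical copies are uncertain. Here, 12 libraries entered 1 fit in edgeR 4.0.16 (R 4.3.3): TMM, filterByExpr (minimum count 10), 1 mean per group and the robust quasi-likelihood F test, with Benjamini-Hochberg adjustment over 12725 genes and a threshold of 0.05. Standard errors derive from the F statistic. Annotation came from GENCODE M21 (GRCm38, the assembly of mm10), where 12107 tested symbols matched 1 gene. No pair of the 66 library pairs was identical (smallest chi-square per gene 16.64).

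The members and gene lists were chosen with earlier results of these data known. The naming rule took Ddx41 and Dhx16, the 15 largest interactions in each direction with at least 10 CPM that also passed without FF ethanol C and Het 4OHT A, and up to 4 called members of each list, or the 2 most abundant where none passed. It gave 10 rises. 1 called gene is not reported here by name. Genes named after their values were seen were the called genes outside the rule, 2700038G22Rik, Spef2, BC005764, the snoRNAs and hosts other than Snora70 and Snhg1, the 8 Het genes, and the list members called or nearly called in the fit without the pair. Same-letter libraries had correlations of deviations of 0.485, 0.706 and 0.413 in Het and 0.169, 0.183 and 0.0724 in FF. Letters were taken to pair libraries where all 3 passed 0.1, which held in Het only. FF missed it through letter C alone, whose ethanol library stood apart, so this does not show that the FF libraries are unpaired. The main fit paired neither line. Alternatives were other scalings and filters, DESeq2 1.42.0, limma 3.58.1 voom, all 18 libraries, replicate blocks, other thresholds and left-out libraries. The fits were tested on simulated data with independent libraries and a common dispersion. That simulation held no pairing by letter and no outlying library, so it does not cover those features of the real data.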

Additional observations from a re-analysis of the deposited data

Results flagged for a closer look

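By the test of the difference itself, the responses of the 2 lines differed for 57 genes, and 56 of them are listed here with the log2 difference (FF response minus Het response, 12 libraries, edgeR adjusted p between 0.000627 and 0.0496). Groups of 3 libraries are too small for a test of single outlying libraries.

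The rises were Snora70 (2.85), Spef2 (2.48), Cd80 (1.99), 2700038G22Rik (1.77), Acpp (1.66), Snhg1 (1.51), Csf2rb2 (1.33), Rab40c (1.30), Repin1 (1.18), Tti2 (1.18), Slc38a7 (1.04) and Rabggtb (0.75).

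The falls are arranged by known role, after their values were seen. Falls in helicases and in replication and division genes were Ddx41 (-1.80), Dhx16 (-1.70), Ankle1 (-1.63), Sapcd2 (-1.40), Haus5 (-1.24), Cep78 (-1.22), Mtbp (-1.14), Dctd (-1.09), Mybl2 (-1.08), Rfc5 (-0.95), Kif20a (-0.84) and Pold1 (-0.82). Falls in amino acid, one-carbon and translation genes were Bcat1 (-2.23), Slc1a5 (-1.11), Phgdh (-0.99), Vars (-0.92), Aldh18a1 (-0.89), Gpt2 (-0.79) and Slc19a1 (-0.78). Falls in lipid, mitochondrial and secretory genes were Fads2 (-1.42), Slc25a10 (-1.08), Msto1 (-1.08), Sdf2l1 (-1.08), Ncln (-1.03), Htra2 (-1.02), Isyna1 (-0.87), Idh3b (-0.87), Idh2 (-0.82) and Coasy (-0.76). Other falls were those of Plekhh2 (-2.34), Ccdc107 (-1.82), Sh2d5 (-1.72), Ccdc101 (-1.58), Ssbp4 (-1.29), Pced1a (-1.26), Map3k6 (-1.22), Ifrd1 (-1.17), Med25 (-1.17), Ydjc (-1.06), Ifrd2 (-1.02), BC005764 (-0.99), Tcf19 (-0.95), Scrib (-0.94) and Nelfcd (-0.78).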

How the results depend on the processing

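The 57 interaction calls moved to 97 with library totals, 107 with at least 5 CPM in 3 libraries, 568 with DESeq2 (33.5% higher against 21.1%), 321 with all 18 libraries (WT 4OHT C included), 373 without FF ethanol C and Het 4OHT A, and 1 at an adjusted p of 0.01, and ran from 1 to 300 with 1 library left out. They stayed within 1.5 times with DESeq2 size factors (44), no filter (51), voom (52) and an absolute log2 of at least 1 (40). DESeq2 called all 57, voom 51 and the fit to all 18 libraries 56. With a replicate block shared by both lines 1 gene was called, and with a replicate block within line 220 (51.8% higher), 55 of them among the 57. Among the 4OHT libraries of its line, each ethanol library correlated best with that of its own letter, a hint from the data and not the design. In FF these correlations of deviations were only 0.0724 to 0.183. In FF, 1263 calls moved to 2144 with DESeq2, 2054 with the block within line, 2610 without both libraries, 329 at 0.01, 434 at an absolute log2 of at least 1, and 336 to 2651 with 1 library left out. In Het, 8 calls moved to 25 with DESeq2, 2 with all 18 libraries, 5 without both libraries, 1 at 0.01, and 2 to 9 with 1 library left out, and stood at 7 and 8 with the blocks. The cause was not tested. The median interaction of all genes was 0.0225, 0.00634 with DESeq2 size factors and 0.0223 with library totals, and 0 of the called genes changed sign. Low levels limit the snoRNAs, several of which lay near 1 CPM.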
